A study of Mus musculus with 12 samples.

Results

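The nuclear-encoded subunits of the mitochondrial respiratory chain and ATP synthase were followed on polyribosomes of the mouse hippocampus. The respiratory chain passes electrons from NADH and succinate to oxygen through complexes I to IV of the inner mitochondrial membrane, and complex V, the ATP synthase, uses the resulting proton gradient to make ATP. Most subunits are encoded in the nucleus, translated on cytosolic ribosomes and imported, while a few come from the mitochondrial genome. Neurons spend much of this ATP on the ion pumping that restores gradients after synaptic activity. Members were taken by gene symbol, with earlier results of these data known. Complex I was taken by the Nduf symbols with a, b, c, s or v, and complex II by Sdha to Sdhd. Complex III was taken by the Uqcr symbols and Cyc1, and cytochrome c by Cycs. Complex IV was taken by the Cox4 to Cox8 symbols other than Cox8b, and complex V by the Atp5 symbols. Cox8b is a complex IV gene that this rule leaves out, and its values are given apart. This gave 84 of the 24421 genes in the count tables, with 36 in complex I, 4 in complex II, 9 in complex III, 1 cytochrome c gene, 17 in complex IV and 17 in complex V. Ndufa4 was kept with complex I by its symbol although it is now placed in complex IV, and Atp5s and Atp5sl were kept with complex V although their products are not subunits of the enzyme. The mitochondrially encoded subunits were not analysed here.

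The 12 libraries were polyribosomal RNA of hippocampus from C57/Bl6 mice aged 6 weeks, 6 labelled control and 6 labelled fear case, with no transgene, deletion or agent named for either group. The protocol is worded alike for all libraries: 8 min in an unfamiliar context, 7 min in the home cage, and tissue collection 15 min after the start. What the control mice experienced and whether a shock was given are not stated. Nothing in the labels ties each library to a mouse of its own, and p-values therefore cover the spread among these libraries only. The RNA came from a pellet under a sucrose cushion and input RNA was not analysed here. Transcript amount and association with ribosomes cannot be told apart, nor can fewer cells of a type and less RNA per cell. Depth was 18.6 M to 44.2 M gene counts per library, with a median of 21.6 M. Counts of the members made up 0.876% of the gene counts in fear case 6, the deepest library, and 1.08% to 1.37% in the other 11. Neuronal RNA was present throughout, with a summed level of 10 neuronal markers between 6409 and 7484 CPM (TMM-scaled counts relative to library size) in every library. Most of these markers are general to neurons, and their sum does not tell hippocampus from other brain regions. The 17 markers of choroid plexus epithelium, the secretory tissue of the ventricles, summed to 1076 to 2944 CPM in controls, 102 to 583 CPM in fear case 1 to 5 and 2222 CPM in fear case 6. Of the 17, 6 (Folr1, Aqp1, Slc4a5, Otx2, Tmem72 and Steap1) were at 0 in at least 1 of fear case 1 to 5, and 0 were at 0 in any control.

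Nearly all members were well expressed, and levels per transcript length spanned a wide range within each complex. In controls the highest level per length in complex IV was that of Cox6c, a small membrane subunit, at 825 ± 83.2 CPM per kb (SD, n = 6). It was followed by Cox8a, another single-span subunit, at 549 ± 17.5 CPM per kb and by Cox4i1, the ubiquitous form of the regulatory subunit that meets the catalytic core, at 407 ± 26.4 CPM per kb. Values of Cox6c, Cox8a and Cox4i1 did not overlap across the 6 control libraries. In complex V, Atp5b, the catalytic beta subunit, had 569 ± 24.5 CPM per kb and Atp5h, a subunit of the peripheral stalk, had 562 ± 56.9 CPM per kb. These values overlapped. Atp5a1, the alpha subunit that alternates with beta in the head, had 269 ± 20.01 CPM per kb, below Atp5b in every control although the enzyme holds both in equal number.

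Complex III split into small and large subunits. Uqcrh, the hinge protein, stood highest at 352 ± 41.6 CPM per kb, and the 5 small subunits Uqcrh, Uqcr11, Uqcrb, Uqcr10 and Uqcrq lay between 238 and 352 CPM per kb. The core proteins Uqcrc1 and Uqcrc2 and the electron carriers Uqcrfs1 (the Rieske iron-sulphur protein) and Cyc1 (cytochrome c1) lay between 52.8 and 90.7 CPM per kb. The lowest of the small subunits, Uqcrq, did not overlap with the highest of the others, Uqcrc1. In complex I the accessory subunit Ndufa6 was highest at 399 ± 25.7 CPM per kb and Ndufb9 followed at 278 ± 28.1 CPM per kb. The 7 core subunits, which hold the flavin and the iron-sulphur clusters, ran from Ndufv2 at 179 ± 16.98 CPM per kb to Ndufs1, the largest of them, at 38.2 ± 5.01 CPM per kb. In complex II the iron-sulphur subunit Sdhb had 125 ± 14.4 CPM per kb and the flavoprotein Sdha 105 ± 6.71 CPM per kb. The membrane anchors were lower, with Sdhd at 46.4 ± 4.01 and Sdhc at 28.0 ± 1.86 CPM per kb. Cycs, the mobile carrier between complexes III and IV, had 77.0 ± 8.32 CPM per kb.

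**Figure D1:**
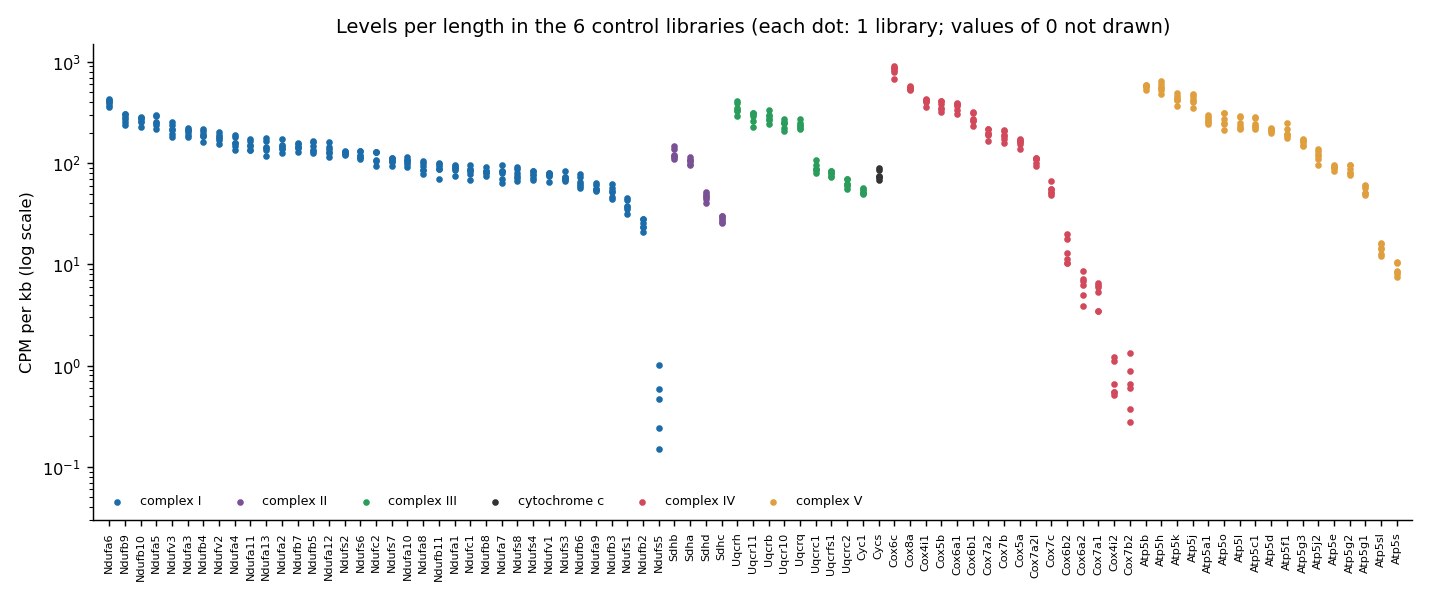
Level per transcript length of the 84 members in the 6 control libraries, in CPM per kb on a log axis, ordered within each complex, with each dot 1 library and values of 0 not drawn. Cox6c is the highest member at 825 CPM per kb on average, while Ndufs5, Cox7b2 and Cox4i2 are the lowest drawn, with averages of 0.411, 0.690 and 0.768 CPM per kb.

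Of neighbours in these orders, 32 of 35 pairs overlapped in complex I, 1 of 3 in complex II, 6 of 8 in complex III, 7 of 16 in complex IV and 9 of 16 in complex V. Length is uncertain for 8 members whose longest coding transcript is over 2 times the shortest, among them Atp5g1, Ndufb2, Sdhc and Uqcrq. Counting can also lower a level: 19 members share over 20% of their 40-base windows with other annotated transcripts. Reads set aside as not unique are lost where the other transcript lies at another locus. Some sharing is instead with a gene that overlaps the member, as for Atp5o (52.9%) with Donson. The share was 87.6% for Atp5g2 and 85.1% for Atp5l, a small membrane subunit of the ATP synthase. Ndufs5, an accessory subunit of complex I, had only 0 to 12 counts per library and shares 25.3% of its windows with another locus. Its level is therefore uncertain. Whether counting used strand is not stated, and 23 members overlap an exon of another counted gene.

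The question put to these libraries is which polyribosomal transcripts of the hippocampus differ between fear case and control as labelled. None of the 81 tested members passed edgeR's quasi-likelihood test at an adjusted p under 0.05, with 0 lower and 0 higher. Over all 14564 genes tested, 8 (0.0549%) were lower and 7 (0.0481%) higher. Differences among the members were small and mostly negative: 69 of 81 (85.2%) had a negative log2 fold change, against 51.4% of all genes tested, and the median was -0.10 against -0.0046. At an unadjusted p under 0.05, 13 members (16.0%) were lower, beside 4.52% of all genes, and 0 members were higher, beside 2.62% of all genes. These shares of all genes are also the ones to set beside such counts for the complexes and lists below. DESeq2 called 1 member lower, Cox6b2, beside 0.343% of all genes, and limma-voom called 0 members. No member had all 6 fear case libraries below all 6 controls (0.323% of all genes) and none had them all above (0.268%). With fear case 6 set aside, the remaining 5 lay below all controls for 1 member, Cox6b2 (1.11% of all genes), and above them for 0 members (0.426%).

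The negative balance was not carried equally by the libraries. The mean log2 CPM over the 81 tested members was lowest in fear case 6, at 6.21, against 6.54, 6.54, 6.55, 6.55 and 6.63 in the other fear case libraries. Controls had 6.47 in control 6 and 6.58, 6.59, 6.62, 6.71 and 6.78 in the others. The ranges of the groups overlapped, and 4 of the fear case libraries lay between 6.54 and 6.55. Fear case 6 was below the mean of the rest of its group in 72 of 81 members with a median difference of -0.38 on the log2 scale, and control 6 was below the rest of its own group in 72 of 81 with a median of -0.22. The same 2 libraries had the highest share of Rn45s, the ribosomal RNA precursor, at 12.5% and 7.98% of gene counts against 4.55% to 6.99% in the others, and the lowest TMM factors, at 0.908 and 0.971 against 0.993 to 1.03. The part of these library properties in the members' levels was not tested. Without fear case 6 the median log2 fold change of the members was -0.03 and 57 of 82 were negative, and edgeR called 1 member lower, Cox6b2, beside 0.791% of all genes.

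**Figure D2:**
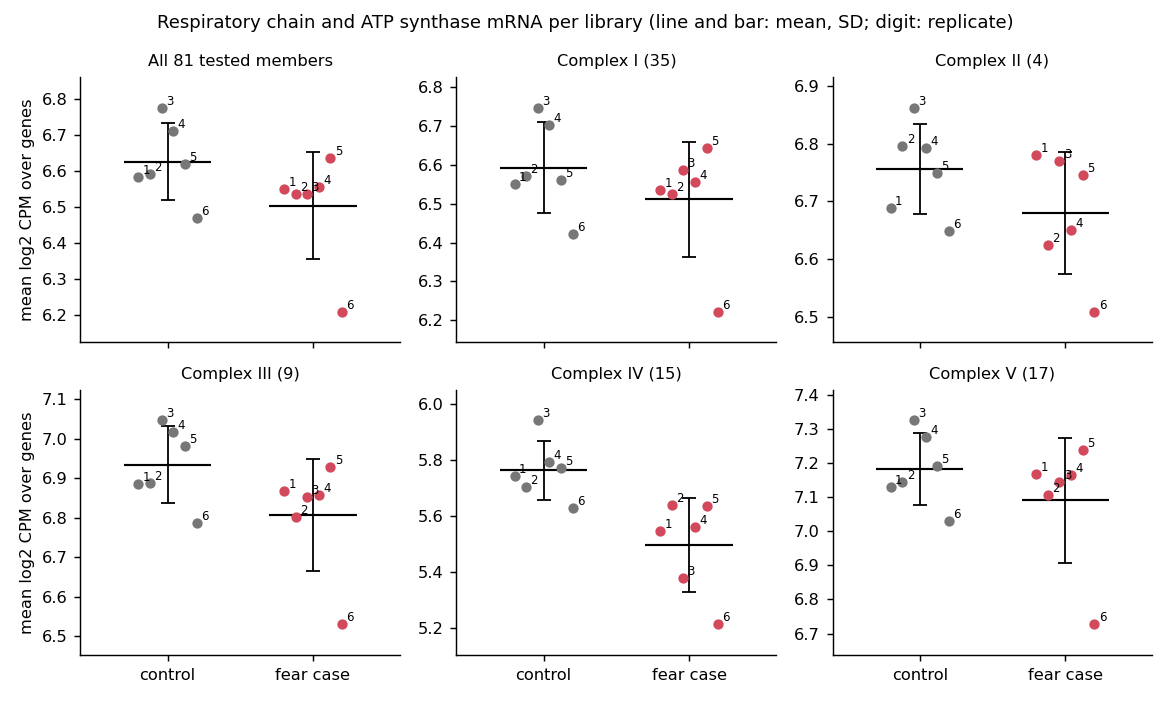
Mean log2 CPM of the tested members in each library, for all 81 members and for complexes I to V, with the digit giving the replicate, the line the group mean and the bar the SD (n = 6 per group). Fear case 6 is the lowest point in every panel, and control 6 is the lowest control in all of them.

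Most members have short transcripts, with a median spliced length of 737 bases, while the median of all genes tested was 2751 bases, so values are given by length. Among tested genes under 1000 bases that are not members, the median log2 fold change was -0.07 and 70.1% of 1178 genes were negative. The 52 members of that length had a median of -0.13 and 49 were negative. At an unadjusted p under 0.05, 9.17% of those other genes and 21.2% of those members were lower. Between 1000 and 2000 bases the 22 members had a median of -0.02, beside -0.04 for other genes, and the 7 members from 2000 to 4000 bases had -0.02 beside -0.0037. Without fear case 6 the medians of the members were -0.06 under 1000 bases, 0.01 from 1000 to 2000 and 0.02 from 2000 to 4000. The sign in the longer classes thus changed without that library, and leaving out other libraries was not examined by length. Other genes under 1000 bases had -0.04 without fear case 6. No member exceeds 4000 bases, where the median of other genes was 0.04. In the difference of fear case 6 from fear case 1 to 5, members under 1000 bases had a median of -0.47 and other genes of that length -0.19. From 1000 to 2000 bases these medians were -0.29 and -0.10.

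**Figure D3:**
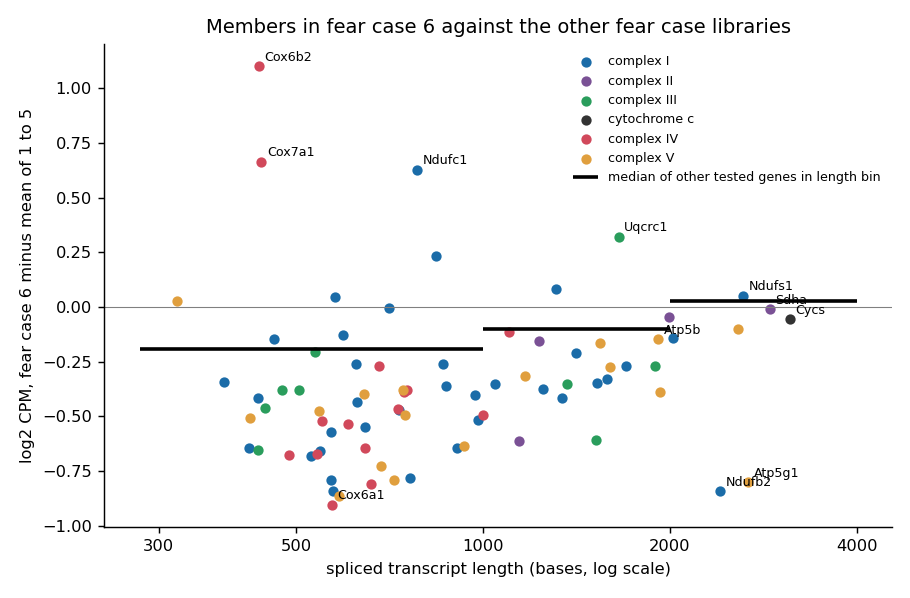
Difference in log2 CPM between fear case 6 and the mean of fear case 1 to 5 for each tested member, against its spliced transcript length in bases on a log axis, coloured by complex, with black lines for the median of other tested genes in each length bin. Most members under 1000 bases lie below the line of their bin, down to -0.90 for Cox6a1, while Cox6b2, Cox7a1 and Ndufc1 lie highest, at 1.102, 0.66 and 0.63.

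The distance of fear case 6 from the other fear case libraries differed between members. In complex IV, Cox6a1, the common form of a small regulatory subunit, had 106 CPM in fear case 6 and 179 to 229 CPM in the other fear case libraries. Uqcrc1, a core protein of complex III, had 164 CPM in fear case 6 and 114 to 140 CPM in the others, and Ndufc1, an accessory subunit of complex I, had 96.4 CPM against 58.5 to 65.4 CPM. Sdha differed from the others by only -0.01 on the log2 scale. The c ring of the ATP synthase, the rotor through which protons pass, was low in that library for all 3 of its genes, by -0.80 for Atp5g1, -0.86 for Atp5g2 and -0.79 for Atp5g3.

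Complex I takes electrons from NADH. Of its 35 tested genes 0 passed the test, 27 had a negative log2 fold change, 5 were lower at an unadjusted p under 0.05, and the median was -0.07. The 7 core subunits had a median of -0.03 with 4 negative, and the 28 accessory subunits one of -0.08 with 23 negative. Without fear case 6 the median was 0.03 for the core subunits with 3 negative, -0.03 for the accessory subunits with 20 negative, and -0.03 for all of complex I. Ndufa1, a small membrane subunit needed for assembly of the complex, had 31.5 to 39.9 CPM in controls with a median of 37.6, and 19.98 to 32.6 CPM in fear case with a median of 31.1. Fear case 6 was the low value, and the other fear case libraries overlapped with the lowest control only. Its log2 fold change was -0.33 (SE 0.10, adjusted p = 0.397 by edgeR). Ndufa11, a membrane-arm subunit, had 73.3 to 94.5 CPM in controls and 46.9 to 77.5 CPM in fear case. It stood at -0.25 on the log2 scale (SE 0.10, adjusted p = 0.602). Ndufb7, which faces the intermembrane space, had 79.3 to 99.0 CPM in controls and 67.9 to 85.1 CPM in fear case, or -0.20 on the log2 scale (SE 0.07, adjusted p = 0.524). In all 3 the groups overlapped.

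The highest log2 fold changes in complex I were those of Ndufs1, Ndufc1, Ndufv1 and Ndufv2, none of which passed the test. Ndufs1, which carries several iron-sulphur clusters, had 83.1 to 118 CPM in controls with a median of 97.7 and 96.3 to 115 CPM in fear case with a median of 112. The fear case range lay inside that of the controls, and the log2 fold change was 0.13 (SE 0.08, adjusted p = 0.766). Ndufv1, the flavin-binding subunit, had a log2 fold change of 0.07 and Ndufv2, its neighbour in the same module, 0.06, with adjusted p of 0.895 and 0.884. Ndufc1 had 0.07 with fear case 6 and -0.06 without it, since the value of 96.4 CPM in that library was the only one above the control range of 53.2 to 74.6 CPM.

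Complex II, succinate dehydrogenase, belongs to both the respiratory chain and the citric acid cycle. None of its 4 genes passed, 3 had a negative log2 fold change, 1 was lower at an unadjusted p under 0.05, and the median was -0.02. Sdhc, the membrane anchor that helps bind haem and ubiquinone, had 51.5, 51.8, 54.5, 57.7, 59.2 and 59.98 CPM in controls. In fear case it had 44.0, 44.5, 45.5, 45.6, 47.3 and 54.9 CPM. All fear case libraries but fear case 1 were below every control, and fear case 6 was not apart from the rest. The log2 fold change was -0.25 (SE 0.07, adjusted p = 0.311), and -0.24 (adjusted p = 0.235) without fear case 6. Its partner anchor Sdhd had 49.2 to 63.2 CPM in controls and 51.0 to 62.0 CPM in fear case, or -0.03 on the log2 scale (SE 0.08, adjusted p = 0.957). Sdha and Sdhb had -0.02 (adjusted p = 0.977) and 0.0042 (adjusted p = 0.996).

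Complex III passes electrons from ubiquinol to cytochrome c. Of its 9 genes 0 passed, 8 had a negative log2 fold change, 2 were lower at an unadjusted p under 0.05, and the median was -0.12. The 5 small subunits were all negative with a median of -0.18. With fear case 6 left out that median was -0.11, with all 5 negative, and the median of complex III was -0.07. Uqcrq, which lies next to cytochrome b, had 110 to 137 CPM in controls with a median of 118, and 83.5 to 114 CPM in fear case with a median of 108. Uqcr10 had 89.997 to 119 CPM in controls and 60.3 to 98.3 CPM in fear case. Fear case 6 was the lowest library for both, and both groups overlapped. Their log2 fold changes were -0.20 (SE 0.08, adjusted p = 0.559) and -0.24 (SE 0.10, adjusted p = 0.602). The next in the order of p, Uqcr11, had -0.18 (SE 0.09, adjusted p = 0.714), and the hinge protein Uqcrh -0.12 (SE 0.08, adjusted p = 0.793). Cycs had 212 to 278 CPM in controls with a median of 229 and 238 to 252 CPM in fear case with a median of 247. The fear case range was narrow and inside that of the controls, including 238 CPM in fear case 6, and the difference was 0.03 on the log2 scale (SE 0.07, adjusted p = 0.958).

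Complex V makes ATP from the proton gradient. Of its 17 genes 0 passed, 16 had a negative log2 fold change, and the median was -0.09. At an unadjusted p under 0.05, 1 gene (5.88%) was lower, near the 4.52% of all genes. Medians were -0.06 for the 5 genes of the catalytic head and central stalk, -0.16 for the 3 of the c ring, -0.08 for the 4 of the peripheral stalk and -0.12 for the 3 small membrane subunits. These were -0.04, -0.05, -0.0026 and -0.06 without fear case 6, and complex V as a whole had a median of -0.04 with 12 of 17 negative. Atp5e, the epsilon subunit of the central stalk, had 35.5 to 39.98 CPM in controls with a median of 38.5, and 24.2 to 37.2 CPM in fear case with a median of 33.1. In 4 fear case libraries, among them fear case 6, Atp5e lay below every control. Its log2 fold change was -0.23 (SE 0.09, adjusted p = 0.597). Atp5d, the delta subunit beside it, had 187 to 206 CPM in controls, 183 to 194 CPM in fear case 1 to 5 and 121 CPM in fear case 6. Its log2 fold change was -0.15 (SE 0.09, adjusted p = 0.747), and -0.07 without that library. Atp5g1, 1 of 3 genes for the same mature c subunit, had 130.2 to 162 CPM in controls, 129 to 149 CPM in fear case 1 to 5 and 77.6 CPM in fear case 6, or -0.21 on the log2 scale (SE 0.11, adjusted p = 0.723). Atp5s, which takes no part in the enzyme itself, had the highest log2 fold change of all members at 0.18 (SE 0.12, adjusted p = 0.786).

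**Figure D4:**
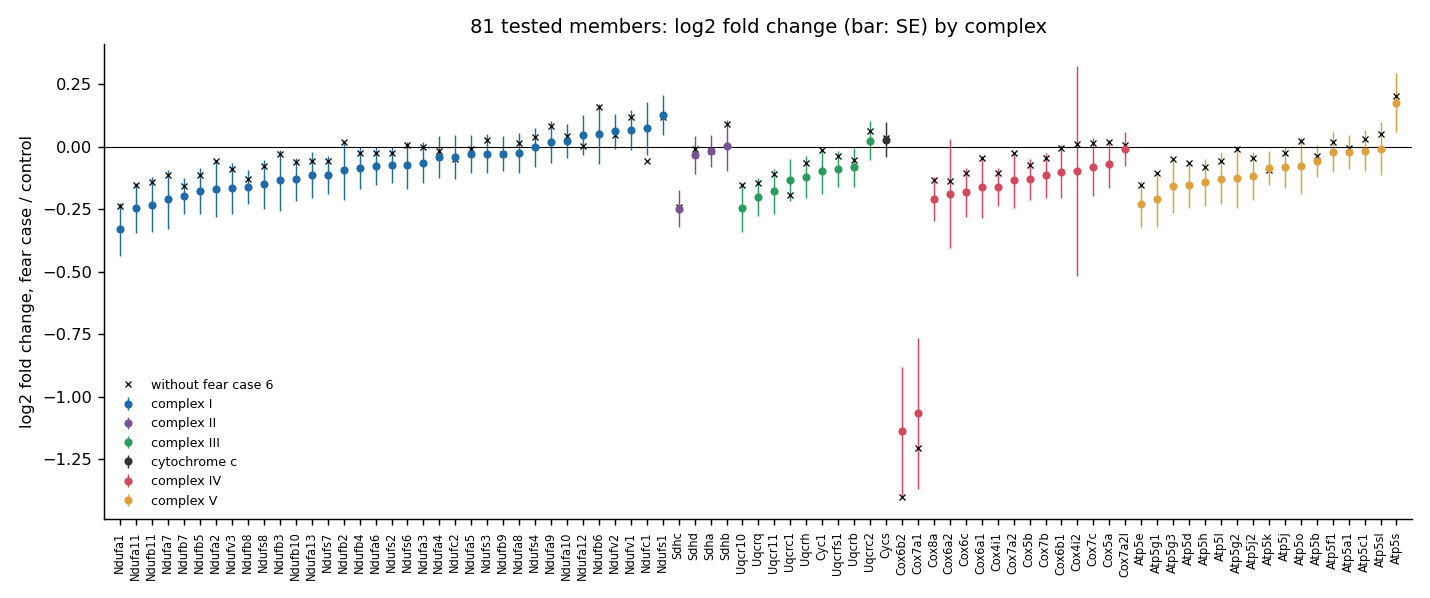
Log2 fold change of fear case against control for the 81 tested members with its standard error, ordered within each complex, with crosses for the value without fear case 6. All members but Cox6b2 and Cox7a1 lie between -0.33 and 0.18 and the crosses lie mostly nearer to 0, while Cox6b2 and Cox7a1 lie below -1 and are farther from 0 without fear case 6.

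Complex IV, cytochrome c oxidase, held the largest differences. It reduces oxygen to water, and several of its nuclear subunits exist as a common form and a form known from restricted tissues. Of its 15 tested genes 0 passed, all 15 had a negative log2 fold change, 4 were lower at an unadjusted p under 0.05, and the median was -0.13, with 2 low-abundance forms far below the rest. The median was -0.04 and 11 of 16 were negative without fear case 6. Cox6b2, known as the testis form of subunit VIb, had 4.47, 4.51, 4.94, 5.68, 7.73 and 8.71 CPM in controls. In fear case 1 to 5 it had 2.76, 1.89, 1.41, 2.08 and 3.20 CPM, and in fear case 6 it had 4.78 CPM. The first 5 fear case libraries were below every control and fear case 6 was within the control range. The log2 fold change was -1.14 (SE 0.26, adjusted p = 0.108), a fitted ratio of 0.454. Without fear case 6 it was lower by the test, at -1.40 (adjusted p = 0.00316). It was also lower by DESeq2 (adjusted p = 0.00471) and by edgeR with no filter on low counts (adjusted p = 0.0383), a setting that called 0.12% of all genes lower.

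Cox7a1, known as the heart and skeletal muscle form of subunit VIIa, had 1.51, 1.53, 2.34, 2.61, 2.77 and 2.84 CPM in controls and 0.631, 0.680, 0.884, 1.15, 1.52 and 1.53 CPM in fear case. Only the 2 highest fear case libraries, fear case 1 and 6, overlapped with the lowest controls. Its log2 fold change was -1.07 (SE 0.30, adjusted p = 0.275), and -1.20 (adjusted p = 0.108) without fear case 6. These values rest on few reads, 13 to 61 counts per library for Cox7a1 and 27 to 192 for Cox6b2. Markers of choroid plexus epithelium and ependyma are given beside both genes, and their part in these differences was not tested. In order of fear case 1 to 6, Cox7a1 had 1.53, 1.15, 0.680, 0.884, 0.631 and 1.52 CPM. The choroid plexus score, the mean log2 CPM of the 17 choroid plexus markers, was 3.53 to 4.595 in controls. It was 2.67, -0.78, 0.88, -0.10 and 2.32 in fear case 1 to 5 and 4.28 in fear case 6. A negative log2 fold change was found for 17 of 17 markers. The 6 ependymal markers summed to 32.9 to 43.2 CPM in controls and 23.3 to 27.4 CPM in fear case. Of the 5 tested, 4 had a negative log2 fold change, while Ccdc153 had 0.12. Tekt1 was called lower by edgeR, at -1.02 (adjusted p = 0.0483), as were 0.0549% of all genes. With the choroid plexus score as covariate in edgeR, Cox6b2 stood at -0.55 on the log2 scale (adjusted p = 0.693) and Cox7a1 at -0.84 (adjusted p = 0.684). The score nearly follows the groups, since of the fear case libraries only fear case 6 lay in the control range. That fit therefore rests largely on fear case 6 and cannot tell the score from the group. The 6 markers of skeletal and heart muscle summed to 25.7 to 35.2 CPM in controls and 23.3 to 34.2 CPM in fear case.

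**Figure D5:**
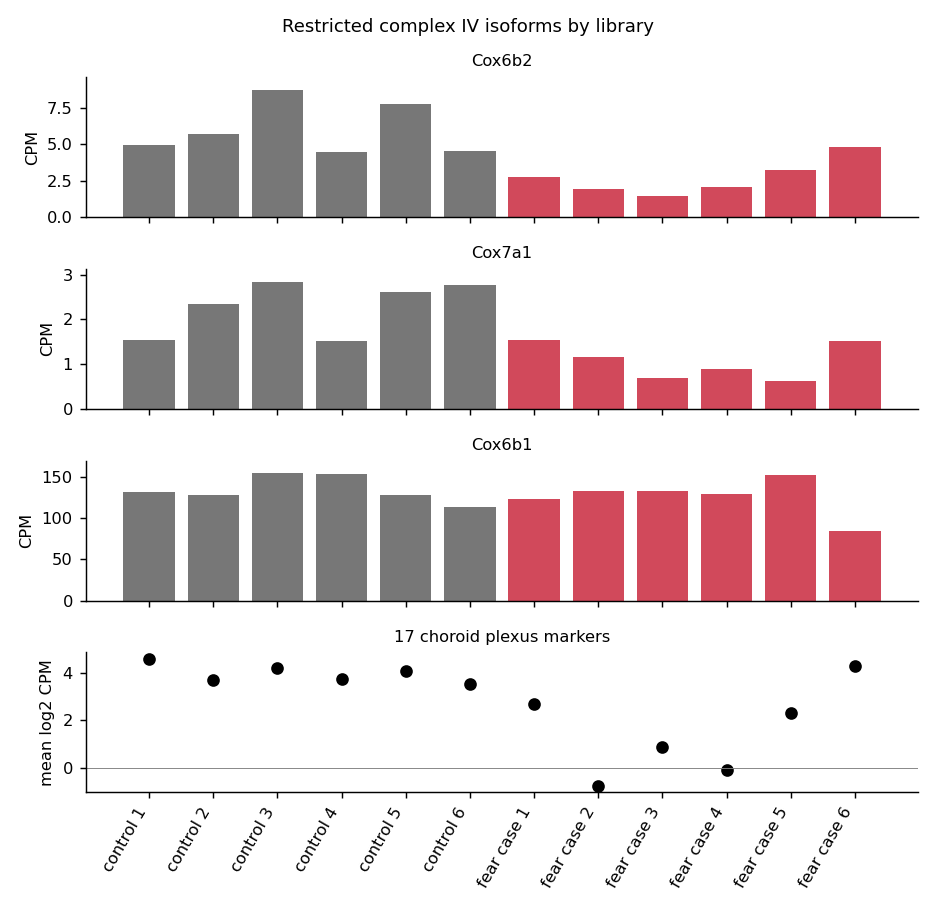
Level in CPM of Cox6b2, Cox7a1 and Cox6b1 in each library as bars, with the mean log2 CPM of 17 choroid plexus markers below. Cox6b2 is at most 3.20 CPM in fear case 1 to 5 and 4.78 CPM in fear case 6. The marker score is lower in fear case 1 to 5 than in any control and 4.28 in fear case 6.

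Log2 fold changes of the common forms of complex IV were nearer to 0. Cox6b1, the common form of VIb, had 114 to 154 CPM in controls, 123 to 153 CPM in fear case 1 to 5 and 83.9 CPM in fear case 6, or -0.10 on the log2 scale (SE 0.11, adjusted p = 0.873). Cox7a2, the common form of VIIa, had -0.13 (SE 0.11, adjusted p = 0.828). Cox8a had 290.4 to 315 CPM in controls with a median of 302, and 191 to 319 CPM in fear case with a median of 259. Fear case 2 held the highest value of all libraries for Cox8a and fear case 6 the lowest. Its log2 fold change was -0.21 (SE 0.09, adjusted p = 0.613). Cox4i1 had -0.16 (SE 0.08, adjusted p = 0.679), and Cox6c, the member with the highest level per length, -0.18 (SE 0.10, adjusted p = 0.738).

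As a share of its family per transcript length, the restricted form was the minor one throughout. Cox6b2 made up 3.16% to 6.33% of the Cox6b pair in controls, 1.17% to 2.44% in fear case 1 to 5 and 5.99% in fear case 6. Cox7a1 made up 1.68% ± 0.471 of its family in controls and 0.887% ± 0.455 in fear case (SD, n = 6). Cox7a2l, a gene linked to supercomplexes, made up 31.6% to 38.8% of the same family in controls, 33.6% to 37.2% in fear case 1 to 5 and 46.4% in fear case 6. Cox6a2, the heart and muscle form of VIa, made up 1.73% ± 0.468 in controls and 1.76% ± 0.537 in fear case. Cox4i2, a form known from lung and linked to low oxygen, made up 0.188% ± 0.0742 in controls and 0.195% ± 0.0896 in fear case. Its log2 fold change was -0.10 (SE 0.42, adjusted p = 0.981), an interval too wide to place it. Cox8c, a testis form, had 0 counts in all 12 libraries and Cox7b2, likewise known from testis, had 1 to 26 counts. Neither was tested. Shares of the 3 c-ring genes were close in both groups, with Atp5g3 at 53.5% ± 1.31 of the family in controls and 53.5% ± 2.09 in fear case, Atp5g2 at 28.5% ± 1.12 and 29.1% ± 1.59, and Atp5g1 at 18.0% ± 0.637 and 17.4% ± 0.934.

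The promoters of Cox6b1 and Cox6b2 and of Cox7a2 and Cox7a1 are shown because these pairs differ in their content of CG dinucleotides. Such dinucleotides are dense at promoters of broadly expressed genes. The 250 bases before the RefSeq start (GRCm38.p6) hold 14 CG in Cox6b1 and 8 in Cox6b2, and 14 in Cox7a2 and 4 in Cox7a1. As a ratio of observed to expected CG this is 0.768 and 0.430 for the first pair and 0.751 and 0.244 for the second. Cox7b and the testis form Cox7b2, not shown, differed the other way. From 250 bases before to 50 after the start they hold 5 and 10 CG, with ratios of 0.368 and 0.564. The sequences read 5′ to 3′ on the strand of the gene, with every CG in capitals.
Cox6b1, chr7:30626115-30626364, strand -: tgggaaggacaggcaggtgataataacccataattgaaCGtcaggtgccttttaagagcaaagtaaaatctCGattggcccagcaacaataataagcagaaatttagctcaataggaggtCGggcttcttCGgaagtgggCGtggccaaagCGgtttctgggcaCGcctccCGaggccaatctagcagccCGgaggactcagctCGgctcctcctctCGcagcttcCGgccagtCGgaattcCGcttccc
Cox6b2, chr7:4753095-4753344, strand -: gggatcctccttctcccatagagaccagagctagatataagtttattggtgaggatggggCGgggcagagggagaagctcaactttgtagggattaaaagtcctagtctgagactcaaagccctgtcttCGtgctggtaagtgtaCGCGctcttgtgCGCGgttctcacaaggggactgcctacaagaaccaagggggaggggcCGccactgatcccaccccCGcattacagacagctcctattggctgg
Cox7a2, chr9:79759854-79760103, strand -: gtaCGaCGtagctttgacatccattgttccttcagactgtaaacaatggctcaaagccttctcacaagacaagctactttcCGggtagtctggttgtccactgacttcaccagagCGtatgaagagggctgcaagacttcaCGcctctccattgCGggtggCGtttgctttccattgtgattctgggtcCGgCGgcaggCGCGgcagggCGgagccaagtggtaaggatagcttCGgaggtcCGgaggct
Cox7a1, chr7:30183921-30184170, strand +: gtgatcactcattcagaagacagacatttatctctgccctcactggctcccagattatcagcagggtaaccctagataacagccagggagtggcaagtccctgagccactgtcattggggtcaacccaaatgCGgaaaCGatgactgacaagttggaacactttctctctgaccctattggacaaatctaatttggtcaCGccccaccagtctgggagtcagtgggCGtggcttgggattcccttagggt

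Cycs has the highest CG content of the promoters shown, with 23 in the 250 bases, a ratio of observed to expected of 0.905. It is shown because it holds the core motif of NRF1, a regulator of respiratory chain genes, which is in capitals and begins 60 bases before the start.
Cycs, chr6:50566570-50566819, strand -: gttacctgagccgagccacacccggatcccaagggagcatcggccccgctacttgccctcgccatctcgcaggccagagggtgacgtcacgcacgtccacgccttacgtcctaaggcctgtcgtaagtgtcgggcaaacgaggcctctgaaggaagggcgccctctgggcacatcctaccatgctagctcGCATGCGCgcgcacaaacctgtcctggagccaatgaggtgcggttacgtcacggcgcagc

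Of the 84 members, 66 matched a promoter in the RefSeq table, taken from 250 bases before to 50 bases after the start. The NRF1 core GCATGCGC, sought on both strands, was in 11 of the 66 (16.7%), beside 3.05% of all 27025 promoters and 5.72% of those of 10963 tested genes. These 11 members were Atp5g2, Atp5k, Atp5l, Cox6a1, Cycs, Ndufa11, Ndufa6, Ndufa8, Sdhb, Uqcr11 and Uqcrc1. The motif AAGATGGC, bound by YY1, was in 9 members (13.6%), beside 4.92% of tested genes, and CCGGAAGT, bound by GABPA, in 5 (7.58%), beside 8.15%. CTTTT at the start, from 5 bases before to 10 after, as in terminal oligopyrimidine transcripts, was in 4 members (6.06%), beside 1.45% of tested genes. Cox6b2 and Cox7a1 held none of these motifs in this window.

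Among genes that build or surround the chain, medians lay near 0. Of 45 tested assembly factors of complexes I to V, 0 passed, 22 were negative, 2 were lower and 3 higher at an unadjusted p under 0.05, and the median log2 fold change was 0.00010. With the choroid plexus score as covariate 28 were negative and their median was -0.05. Uqcc3, needed for complex III assembly, had -0.28 (SE 0.10, adjusted p = 0.557), and Ndufaf2, a complex I assembly factor, 0.23 (SE 0.10, adjusted p = 0.618). Of 17 genes of the tricarboxylic acid cycle and pyruvate dehydrogenase, 0 passed, 3 were negative, 1 was lower and 1 higher at an unadjusted p under 0.05, and the median was 0.04. With the covariate 12 of the 17 were negative and the median was -0.01. The lowest p in this list belonged to Suclg2, a subunit of succinyl-CoA ligase, at -0.47 (SE 0.16, adjusted p = 0.460), and then to Dld, the shared dehydrogenase subunit of pyruvate and ketoglutarate dehydrogenase, at 0.17 (SE 0.07, adjusted p = 0.585). These lists have longer transcripts, with medians of 1673 and 2492 bases, and the lists were not compared by a test.

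Subunits and partners outside the symbol rule went from -1.85 to 0.20, with 6 of 8 tested genes negative, 0 called by edgeR, 1 lower at an unadjusted p under 0.05 and a median of -0.08, or -0.05 without fear case 6. The lowest was Cox8b, the heart and muscle form of subunit VIII, with 0.815 to 2.10 CPM in controls, 0.0442 to 0.991 CPM in fear case 1 to 5 and 0.747 CPM in fear case 6. Groups overlapped, and its difference of -1.85 on the log2 scale (SE 0.49, adjusted p = 0.210) did not pass with edgeR, while DESeq2 called it (adjusted p = 0.0394). Cytosolic ribosomal proteins, another class of short and abundant transcripts, had 72 of 81 tested genes negative and 0 called. At an unadjusted p under 0.05, 6 of them (7.41%) were lower, beside 4.52% of all genes. Their median was -0.07, or -0.04 without fear case 6. Mitochondrial ribosomal proteins had 48 of 77 negative, 0 called and 6 (7.79%) lower at an unadjusted p under 0.05. Their median was -0.03, which was 0.02 with 34 negative when fear case 6 was left out. In fear case 6 the median difference from fear case 1 to 5 was -0.25 for cytosolic and -0.32 for mitochondrial ribosomal proteins, beside -0.38 for the members.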

How the data were processed

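Hippocampal polyribosomal RNA was sequenced as 40 bp read pairs after a SMARTer total RNA-seq preparation, per the labels' protocols. The authors deposited whole-number counts per gene symbol, one table per library, with no normalization. Per the submitters' processing notes, cutadapt, TopHat, Bowtie and HTSeq were used with build mm10, while their versions, the annotation and the strand setting are not stated. Summary lines of the counter were left out of library sizes. Apart from reads set aside as not unique, 25.5% to 33.3% of reads fell outside genes and 0.453% to 0.550% were ambiguous.

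The 6 fear case libraries were compared with the 6 control libraries in R 4.3.3 with edgeR 4.0.16 (filterByExpr with minimum count 10 and minimum total 15, TMM, estimateDisp, glmQLFit and glmQLFTest, no covariate), fitted across 14564 genes with Benjamini-Hochberg adjustment, calls at an adjusted p under 0.05. The SE was taken from the log2 fold change and the F statistic. Mean log2 CPM uses a prior count of 2. Alternatives were RLE and upper quartile scaling, no filter, a mean of at least 1 CPM, DESeq2 1.42.0, limma-voom 3.58.1, a replicate block, the choroid plexus score as covariate, library sizes without 4 abundant RNAs (Rn45s, Malat1, Rpph1 and Lars2), and each library left out. Lengths are medians over protein-coding transcripts of GENCODE vM21 (GRCm38), where 24046 symbols and all 84 members matched, with older symbols through RefSeq. Promoters are from RefSeq. The fit was tested on simulated data.

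Members and lists were chosen with earlier results of these data known. Named genes are, in each complex, the 3 lowest unadjusted p and the 2 highest levels per length, the 5 lowest and 5 highest log2 fold changes, all isoform families, members not tested, and 2 genes of each related list by p. Uqcrc1, Cyc1, Atp5a1, Atp5l and others named for level, sequence sharing or fear case 6 were chosen after their values were seen. No pair of libraries agreed within counting noise, so all 12 were kept.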

Additional observations from a re-analysis of the deposited data

Results flagged for a closer look

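A library was set apart here when its gap to the nearest other library of its group was large against the range of the group (Dixon's 95% critical value). Of 86 groups of 6 libraries examined over 43 measures, 19 held such a library, where chance gives 4.3 at 1 in 20, and 17 of the 19 were fear case 6. The measures are not independent, since they share libraries.

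Fear case 6 was low in mean log2 CPM over all tested members (6.21), of complex I (6.22), complex III (6.53) and complex V (6.73). Among the ATP synthase genes it was low for Atp5e at 24.2 CPM, Atp5d at 121 CPM, Atp5g1 at 77.6 CPM, Atp5g2 at 27.4 CPM and Atp5g3 at 64.5 CPM. In complex III it was low for Uqcrq at 83.5 CPM, Uqcr10 at 60.3 CPM, Uqcr11 at 85.3 CPM and Uqcrh at 122 CPM. In complexes I and IV it was low for Ndufa1 at 19.98 CPM, Ndufa11 at 46.9 CPM and Cox7a2 at 72.9 CPM. It was high for Ndufc1, at 96.4 CPM. The other 2 were Sdhc, high in fear case 1 at 54.9 CPM, and Ndufs1, low in fear case 2 at 96.3 CPM.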

How the results depend on the processing

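Among all genes, 8 were lower and 7 higher by edgeR. Lower genes numbered 26 with no filter, 4 at a mean of at least 1 CPM, 50 by DESeq2, 5 by limma-voom and 0 with the choroid plexus score as covariate, and 3 to 116 when each library was left out, the 116 without fear case 6. Higher genes numbered 11 with no filter, 13 by DESeq2 and 6 to 12 when each library was left out. Members called numbered 1 with no filter, 1 by DESeq2 and 0 to 1 when each library was left out. With the covariate the median was -0.24 for the members and -0.30 for complex IV. In that fit 31 of the 81 tested members were lower at an unadjusted p under 0.05, beside 596 of all 14564 genes, and 0 members were called. Leaving out fear case 6 together with the covariate, chosen after seeing the data, gave 0 lower and 2 higher genes, 32 negative members, and a median of 0.084 for complex II. In that fit these log2 fold changes turned: Atp5b 0.081, Atp5h 0.16, Ndufa6 0.053, Sdhd 0.14, Sdha 0.027, Ndufc1 -0.0099, Cox6a2 0.053, Cox6b1 0.070, Cox7a2 0.0099, Atp5g3 0.13 and Mpc1 0.065. With the covariate Ndufv1 turned to -0.013 and Sdhb to -0.15. Sdhb, at 0.0042, also turned under upper quartile scaling (-0.0016) and limma-voom (-0.016). When each library was left out, values that crossed 0 ran from -0.19 to 0.083 for Cox4i2, -0.043 to 0.0101 for Cox7a2l, -0.0053 to 0.075 for Cycs, -0.067 to 0.0056 for Ndufb9, -0.055 to 0.12 for Ndufc1, -0.036 to 0.0096 for Sdha and -0.051 to 0.090 for Sdhb. By raw counts in place of length, Cox7a1 held 0.910% and Atp5g1 46.6% of their families. The cause was not tested.

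The replicate numbers did not pair the libraries: correlations of same-numbered libraries ran from -0.171 to 0.0468, and 2 of 6 matched their own number best. With the replicate block 11 genes were lower and 7 higher, 0 members were called, the members' median was -0.11, and Sdhb was -0.0072. Depth limits Cox7a1, Cox4i2, Cox7b2 and Ndufs5, which have few counts.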

Other observations

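The other mitochondrial lists held no gene called by edgeR. Of 13 carriers and porins 7 were negative, 0 were at an unadjusted p under 0.05, and the median log2 fold change was -0.02, which was 0.02 without fear case 6. Slc25a13, an aspartate and glutamate carrier, had -0.51 (SE 0.25, adjusted p = 0.707), and Mpc1, part of the pyruvate carrier, -0.10 (SE 0.08, adjusted p = 0.834). Of 15 tested regulators of mitochondrial gene expression 9 were negative, 1 was lower at an unadjusted p under 0.05, and the median was -0.04. Esrra, a nuclear receptor that acts on respiratory chain genes, had 20.9 to 26.7 CPM in controls and 16.97 to 23.0 CPM in fear case, or -0.22 on the log2 scale (SE 0.10, adjusted p = 0.642). Polrmt, the mitochondrial RNA polymerase, had 0.16 (SE 0.11, adjusted p = 0.795).

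Of 8 mitochondrial antioxidant genes 5 were negative, 1 was lower at an unadjusted p under 0.05, and the median was -0.07, or -0.04 without fear case 6. Gpx4, a peroxidase for lipid hydroperoxides, had 256 to 291 CPM in controls, 232 to 255.1 CPM in fear case 1 to 5 and 183 CPM in fear case 6. Every fear case library lay below every control by a narrow margin, as was so for 0.323% of all genes tested. The log2 fold change was -0.23 (SE 0.07, adjusted p = 0.404). Txnrd2, the mitochondrial thioredoxin reductase, had -0.19 (SE 0.12, adjusted p = 0.770), and Higd2a, a supercomplex factor outside the symbol rule, -0.16 (SE 0.10, adjusted p = 0.762).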
